A study of Mus musculus with 64 samples.

Results

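Voltage-gated potassium channels open when a neuron is depolarised and carry potassium out of the cell, which ends the action potential and sets how soon the next can follow. Kv1 subunits cluster in axons and act at low voltages, Kv3 subunits close fast enough to sustain rapid firing in fast-spiking interneurons, Kv4 subunits carry the transient A-type current of dendrites, and Kv7 subunits form the slow M-current that dampens repeated firing. Inherited changes in several of these genes cause epilepsy or episodic ataxia.

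Of the 18432 genes in the deposited table, 7 pore-forming alpha subunits were followed here: *Kcna1*, *Kcna2* and *Kcna4* of the Kv1 family, *Kcnc1* and *Kcnc2* of the Kv3 family, *Kcnd2* of the Kv4 family and *Kcnq3* of the Kv7 family. They were chosen by name, as the rows whose Ensembl gene ID maps to these symbols in GENCODE, and all 7 were found and passed the filter on low values. Earlier results of these data were known when the members and lists were chosen. Counts of them beside shares over all genes are therefore descriptions, not tests. RNA was sequenced from the frontal cortex and hippocampus of mice with the R87C change in 1 copy of *Cyfip2* (Cyfip2+/R87C, knock-in or KI), a model of West syndrome, and of their wild-type (WT) littermates without it. Both genotypes were on the C57BL/6N background and carried no other listed allele or treatment. Each region was taken at postnatal week (PWK) 1, 7, 14 and 28 from 4 mice per genotype, which gave 16 groups of 4 and 64 libraries. The labels do not say whether both regions came from the same mice, and the main tests treated all libraries as independent. The change is in every cell of the body. The tissue was sequenced in bulk, so a region's level cannot be assigned to a cell type. For the same reason fewer cells of a type and less RNA per cell cannot be told apart.

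All values below are the authors' normalised counts, and the totals of the libraries lay between 29.2 and 32.6 M after that scaling. The regions matched their labels: *Prox1*, a granule cell gene of the dentate gyrus, was at 2980.2 to 6272 in hippocampal libraries and at 360 to 679 in cortical ones, and the neuronal gene *Snap25* was at 21717 or more in all. The Y-linked gene *Ddx3y* was at 826 or more in every library, so the results may hold for male mice only. The paper used both sexes over its experiments. *Cyfip2* itself was at 14909 to 44053, but since the knock-in changes a codon this does not check the genotype labels. PWK 14 KI cortex had less of it than WT, with 28584 to 38683 against 39967 to 44053. The same held for PWK 28, with 21597 to 30055 against 34022 to 35279. PWK 7 cortex went the other way, with KI libraries at 37662 to 38975 and WT ones at 34519 to 36129. The genotypes overlapped in PWK 1 cortex and at every age in hippocampus. No test of *Cyfip2* is given. One hippocampal KI library at PWK 14, replicate 1, stood apart: the summed level of 6 astrocyte markers was 195819 in it, 76077 to 87361 in the other 3 KI libraries and 43236 to 47727 in the 4 WT libraries. Its 6 microglia markers summed to 17203, against 6759 to 9210 in the other KI libraries and 6454 to 8078 in WT. The members, the named channel genes and the list counts at that age in hippocampus are therefore also given without it.

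The genes lie on 6 chromosomes of GRCm38. *Kcna1* (ENSMUSG00000047976) spans chr6:126640397-126646384 on the minus strand, *Kcna2* (ENSMUSG00000040724) chr3:107101146-107115005 and *Kcna4* (ENSMUSG00000042604) chr2:107290639-107298502 on the plus strand. *Kcnc1* (ENSMUSG00000058975) spans chr7:46396497-46438704 and *Kcnc2* (ENSMUSG00000035681) chr10:112271121-112467024, both on the plus strand. *Kcnd2* (ENSMUSG00000060882) spans chr6:21215503-21729805 on the plus strand and *Kcnq3* (ENSMUSG00000056258) chr15:65986387-66286642 on the minus strand. The annotation places 2 other gene models of the table, *Gm42583* and *5330437M03Rik*, over *Kcnd2* on the same strand, so reads could have been shared between them and its value is uncertain to that extent.

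Because *Kcnc1*, *Kcnc2*, *Kcnd2* and *Kcnq3* had lower levels together in the KI hippocampus at PWK 14, the 250 bases before the start of the former 3 genes are shown, from the RefSeq promoter table for GRCm38.p6, 5′ to 3′ on the plus strand. No GENCODE exon overlaps them. They are chr7:46396218-46396467 for *Kcnc1*, chr10:112270871-112271120 for *Kcnc2*, the nearest of 4 listed starts to the GENCODE start, and chr6:21215096-21215345 for *Kcnd2*. Capitals mark matches to 3 motifs searched on both strands. The GC box was searched as GGGCGG, the core of the cyclic AMP response element was searched as TGACG, and the TATA box was searched as TATAAA.
Kcnc1: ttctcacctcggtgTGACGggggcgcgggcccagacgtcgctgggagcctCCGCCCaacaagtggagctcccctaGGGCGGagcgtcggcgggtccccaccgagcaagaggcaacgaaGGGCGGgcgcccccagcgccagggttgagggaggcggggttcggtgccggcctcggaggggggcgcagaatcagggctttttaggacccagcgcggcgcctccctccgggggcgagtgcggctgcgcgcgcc
Kcnc2: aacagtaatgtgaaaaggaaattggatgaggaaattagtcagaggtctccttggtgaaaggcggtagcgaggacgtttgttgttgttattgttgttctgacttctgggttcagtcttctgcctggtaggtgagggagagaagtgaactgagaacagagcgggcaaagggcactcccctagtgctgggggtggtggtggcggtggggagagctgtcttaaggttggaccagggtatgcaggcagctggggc
Kcnd2: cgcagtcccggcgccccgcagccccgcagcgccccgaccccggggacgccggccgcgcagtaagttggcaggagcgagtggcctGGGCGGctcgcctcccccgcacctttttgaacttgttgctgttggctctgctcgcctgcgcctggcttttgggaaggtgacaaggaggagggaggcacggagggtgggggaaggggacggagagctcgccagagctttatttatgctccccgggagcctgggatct

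The 3 windows differed in composition. The *Kcnc1* window was 74.4% G and C with 30 CpG dinucleotides, 3 GC boxes and 1 TGACG, and the *Kcnd2* window was 68.8% G and C with 22 CpG and 1 GC box. The *Kcnc2* window was 52.8% G and C with 5 CpG and held none of the 3 motifs. Over all 32851 windows of that length the medians were 52.4% and 6 CpG, and GGGCGG was in 32.7%, TGACG in 17.8% and TATAAA in 12.4%. Of the other members with a window in the table, *Kcna2* and *Kcna4* were 62.4% and 65.2% G and C, with 0 and 1 GC box. Unlike the 3 windows shown, that of *Kcna2* overlaps 1 GENCODE exon, and its RefSeq start lies 421 bases from the GENCODE start. A match or its lack describes these letters only.

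The normal course of the 7 genes was read from the WT mice first, since it sets the level against which the knock-in can be seen. The labels do not say whether the ages were processed together, so age and processing cannot be told apart. Per kb of merged exon, the scale on which levels of different genes are compared, *Kcnq3* led the cortex at PWK 1 with 774 ± 70.5 (SD, n = 4), followed by *Kcnd2* with 614 ± 15.3, *Kcna2* with 321 ± 27.05 and *Kcnc1* with 246 ± 6.37. *Kcnc2* at 181 ± 22.0 and *Kcna1* at 165 ± 21.3 overlapped, and *Kcna4* was lowest with 111 ± 13.01. By PWK 28 the order had changed. *Kcna2* led with 871 ± 24.9, with no library of *Kcnc1* at 637 ± 7.50 reaching it, and *Kcnq3* had come down to 482 ± 12.1, where it overlapped *Kcnc2* at 487 ± 21.3. *Kcna4* remained lowest at 121 ± 22.9.

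In the hippocampus *Kcnd2* led from the start, with 896 ± 14.0 per kb at PWK 1 and 734 ± 46.9 at PWK 28, and no library of the next gene reached it at either age. Behind it at PWK 28, *Kcna2*, *Kcnc1*, *Kcnq3*, *Kcna1* and *Kcnc2* followed each other between 546 ± 27.5 and 441 ± 24.6 per kb, each overlapping its neighbour. *Kcna4* was lowest in all 16 groups. Dividing by the longest protein-coding transcript instead kept the lowest gene in 16 groups and the highest in 15, but the full order in only 3, and *Kcnd2* then overlapped *Kcnc1* in WT hippocampus at PWK 28.

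**Figure D1:**
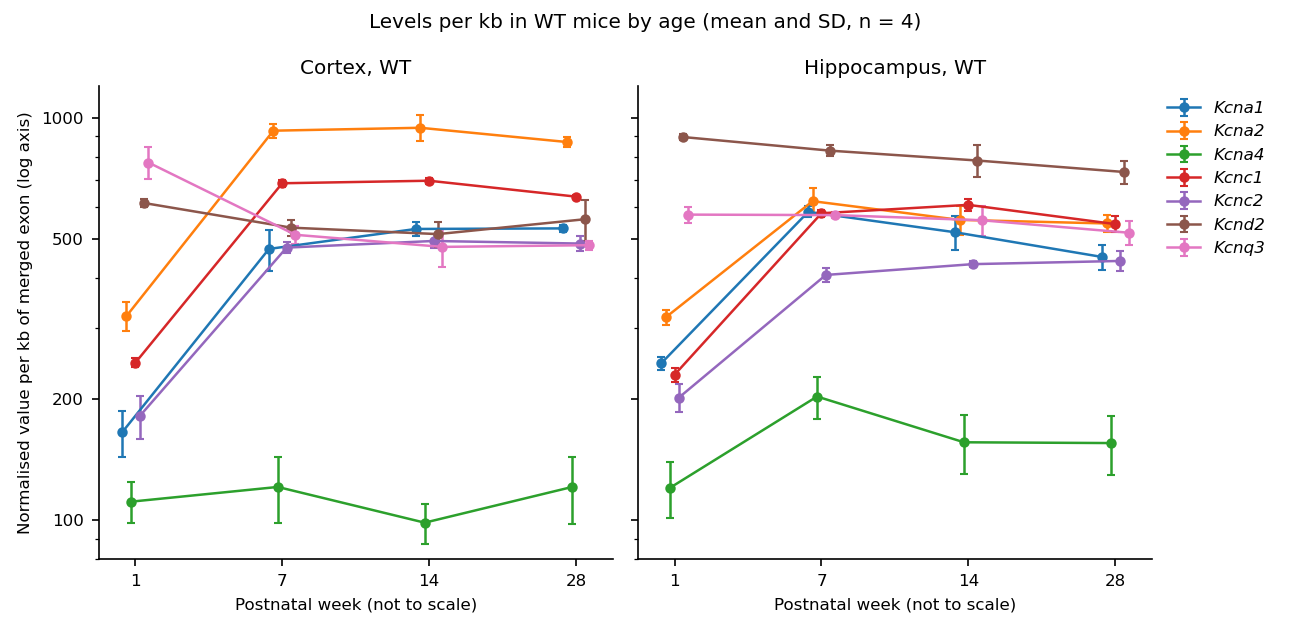
Levels in WT mice in normalised counts per kb of merged exon on a log axis, against postnatal week (ages evenly spaced, not to scale), with points and bars for the mean and SD of 4 libraries. In cortex *Kcna1*, *Kcna2*, *Kcnc1* and *Kcnc2* climb between PWK 1 and 7 while *Kcnq3* comes down, and in hippocampus *Kcnd2* stays on top throughout.

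Between PWK 1 and PWK 7, as axons myelinate and interneurons mature, 4 of the 7 members rose in WT cortex and 2 fell (limma, Benjamini-Hochberg adjusted p under 0.05). Over all 18378 genes tested, 32.5% rose and 32.7% fell. *Kcna2*, an axonal Kv1 subunit, was at 3546, 3556, 4049 and 4158 at PWK 1 and at 10538, 11017, 11112 and 11582 at PWK 7, 2.89 times the mean. *Kcna1*, which assembles with it, went from 648 to 880 up to 2002 to 2516, 2.86-fold. *Kcnc1* and *Kcnc2*, the Kv3 subunits, rose 2.80-fold and 2.62-fold, and for all 4 genes every library at PWK 7 was above every library at PWK 1. The share of all genes without overlap between ages was not computed, for these or the later ages. *Kcnq3*, the M-current subunit, fell by 0.59 (log2 difference, SE 0.07, adjusted p = 6.44e-06 in limma), from between 9841 and 12054 to between 7053 and 7843. *Kcnd2* fell by 0.20 (SE 0.05, adjusted p = 0.00172). *Kcna4* was at 454 to 588 and then at 444 to 703, and the log2 difference of 0.11 had a 95% interval from -0.18 to 0.39.

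In WT hippocampus 5 members rose over the same interval and 1 fell, where 30.9% and 30.4% of all genes did. The same 4 genes rose, *Kcnc1* 2.52-fold, *Kcna1* 2.38-fold, *Kcnc2* 2.02-fold and *Kcna2* 1.94-fold. *Kcna4*, a rapidly inactivating Kv1 subunit, also rose, from 451, 589, 615 and 672 to 827, 951, 1054 and 1089. *Kcnq3* was at 7948 to 8801 and then at 8260 to 8583, a log2 difference of -0.00 with an interval from -0.09 to 0.08. *Kcnd2* fell by 0.11 (log2 difference, adjusted p = 0.0177 in limma), a call that was lost with all 64 libraries in 1 model (adjusted p = 0.147), with a correction for GC content and length (0.235) and without PWK 7 replicate 1 (0.0504).

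After PWK 7 fewer members were called than between PWK 1 and PWK 7. At an unadjusted p under 0.05 in limma there were 3 of the 7 in WT cortex and 7 in WT hippocampus. Of all genes, 6498 of 18377 in cortex and 5518 of 18392 in hippocampus had such a p. From PWK 7 to PWK 28 in WT cortex no member rose and *Kcnc1* fell by 0.11 (SE 0.03, adjusted p = 0.0352 in limma), where 10.9% of genes rose and 11.4% fell. The call was lost without any 1 library other than PWK 7 replicate 2, with adjusted p from 0.0513 to 0.0855, and with total-sum scaling (0.1096), while *Kcna1* was called higher without PWK 7 replicate 4 (0.23, adjusted p = 0.0385) and with that scaling (0.21, adjusted p = 0.0478). In WT hippocampus, where 6.35% of genes rose and 8.38% fell, *Kcna1* fell by 0.37 (SE 0.05, adjusted p = 0.00179), *Kcnd2* by 0.18 (0.0366) and *Kcna4* by 0.39 (0.0480). *Kcna1* was at 2687 to 2893 at PWK 7 and at 1949 to 2309 at PWK 28, with no overlap. The *Kcna4* call was lost without any 1 library other than PWK 7 replicate 1 or PWK 28 replicate 4 (adjusted p up to 0.114), and that of *Kcnd2* without any other than PWK 7 replicate 3 or PWK 28 replicate 2 (up to 0.0880). *Kcna2* was called lower without PWK 7 replicate 2 (-0.21, adjusted p = 0.0417) and *Kcnq3* without PWK 28 replicate 2 (-0.18, adjusted p = 0.0325).

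The regions differed for 6 of the 7 members in adult WT mice, over 12 hippocampal and 12 cortical libraries at PWK 7, 14 and 28 with age as a term. Of all genes, 29.7% were higher in hippocampus and 28.1% lower. *Kcna2* was lower in hippocampus, at 6050 to 8208 with a median of 6724, against 10053 to 12004 with a median of 10892 in cortex (log2 difference -0.67, SE 0.04, adjusted p = 8.90e-15 in limma). *Kcnc1* was also lower, at 5005 to 6032 against 5938 to 6734, and *Kcnc2* at 2833 to 3355 against 3248 to 3664. *Kcnd2* was higher in hippocampus, at 3458 to 4581 against 2376 to 3327, a log2 difference of 0.55 (SE 0.05). *Kcna4* was 1.51 times the cortical mean and *Kcnq3* 1.12 times. *Kcna1* had medians of 2500.25 and 2497 in hippocampus and cortex, and the log2 difference of 0.01 had an interval from -0.11 to 0.14.

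At PWK 1 the regional pattern was another one, with 16.1% of genes higher and 18.6% lower in hippocampus. *Kcna1* was at 1113 to 1209 in hippocampus and 648 to 880 in cortex (log2 difference 0.58, SE 0.09), *Kcnd2* was higher by 0.54 (SE 0.04) and *Kcnq3* lower by a log2 difference of -0.43 (SE 0.06), each with an adjusted p of at most 0.000367 in limma. *Kcna2* was at 3599 to 4008 in hippocampus and 3546 to 4158 in cortex, a log2 difference of -0.01 with an interval from -0.14 to 0.12.

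The comparison of KI with WT mice asked which of these genes differed with genotype, and when. The paper reports recurrent seizures and early deaths in older KI mice, and weaker staining of a neuronal marker in their hippocampus. The older KI libraries therefore come from surviving mice of a line with seizures. The part of seizures, survival or loss of neurons in the differences, as against the mutation itself, was not tested. The WT libraries are those described above. At PWK 1 and PWK 7 no member was called in either region. Of all genes, limma called 0.00546% at PWK 1 and 0.00545% at PWK 7 in cortex, while the hippocampal shares were 0.0109% and 0.0218%. At an unadjusted p under 0.05, there were 0 members in cortex at PWK 1, where 5.27% of all genes had such a p, and 2 of the 7 in each of the other 3 comparisons, where 8.05% (cortex, PWK 7), 5.46% and 6.22% (hippocampus, PWK 1 and 7) did. *Kcna1* in cortex at PWK 7 was at 2443, 2667, 2679 and 2721 in KI mice and at 2002, 2060, 2451 and 2516 in WT, a log2 difference of 0.23 with an interval from 0.07 to 0.38 and an adjusted p of 0.420 in limma.

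**Figure D2:**
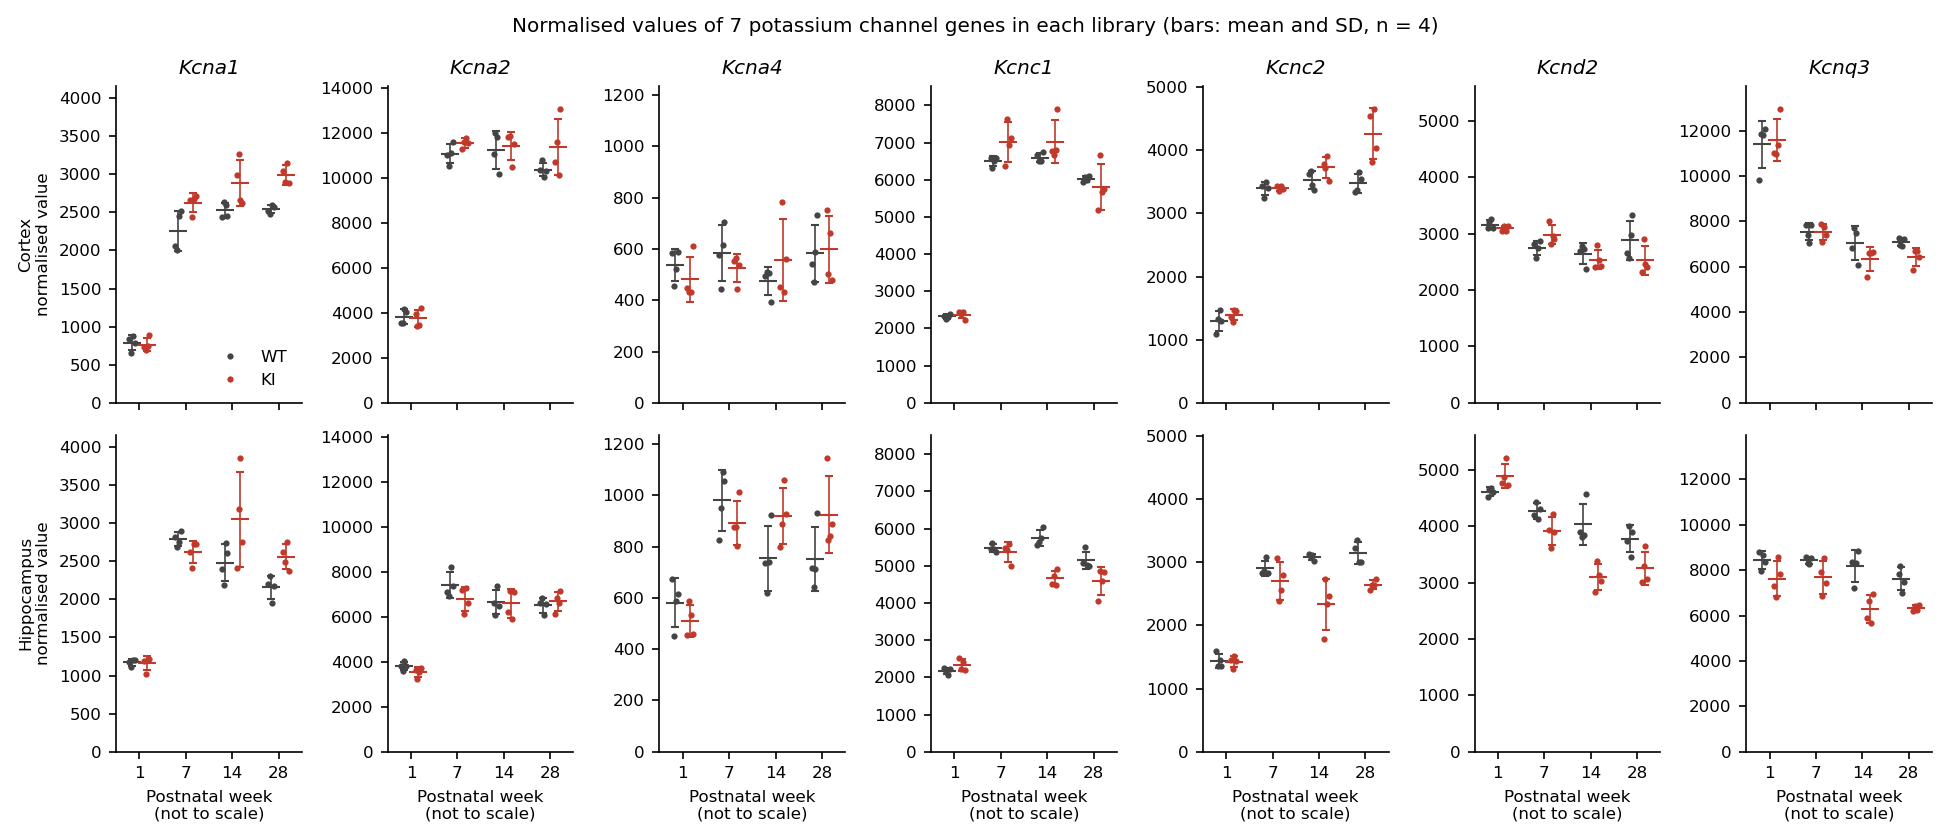
Normalised counts of each gene in each library against postnatal week (ages evenly spaced, not to scale), cortex above and hippocampus below, with WT in grey, KI in red, and bars for the mean and SD of 4 libraries. The genotypes overlap at PWK 1 and 7 except for *Kcnd2* in hippocampus at PWK 1, and in hippocampus at PWK 14 and 28 the KI libraries of *Kcnc1*, *Kcnc2* and *Kcnq3* lie below all WT libraries. No share of all genes without overlap is given for PWK 1 and 7.

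In cortex at PWK 14 no member passed the test, while 2.48% of all genes were higher and 2.7% lower. At an unadjusted p under 0.05 there was 1 of the 7, as against 20.6% of all genes. *Kcna1* was at 2621, 2665, 2996 and 3268 in KI cortex and 2443, 2452, 2592 and 2635 in WT (log2 difference 0.19, interval 0.02 to 0.35, adjusted p = 0.182 in limma). None of the 7 members had KI libraries clear of the WT libraries, as 14.2% of all genes did. *Kcnq3* had the lowest difference of the 7, at -0.14 with an interval from -0.33 to 0.04.

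In cortex at PWK 28, 2 of the 7 members were higher in KI mice and none was lower, where 12.2% of all genes were higher and 10% lower. *Kcna1* was at 2882, 2894, 3046 and 3153 in KI mice and at 2478, 2515, 2565 and 2597 in WT mice. All 4 KI libraries lay above all WT libraries, and the log2 difference was 0.24 (SE 0.05, interval 0.12 to 0.35, adjusted p = 0.0101 in limma), a mean 17.9% above WT. *Kcnc2* was at 3808, 4028, 4547 and 4645 in KI cortex and 3338, 3364, 3544 and 3658 in WT, again with no overlap (log2 difference 0.29, SE 0.07, adjusted p = 0.0172), a mean 22.5% above WT. Its call was narrowly lost without WT replicate 1 (adjusted p = 0.0508). *Kcnq3*, at 5851 to 6713 against 6930 to 7280, also did not overlap but had an adjusted p of 0.0845, which fell to 0.0343 with total-sum scaling. Groups did not overlap for 3 of the 7 members and for 25.8% of all genes.

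The remaining cortical members differed less at PWK 28. *Kcnc1*, the other Kv3 subunit, was at 5174, 5677, 5751 and 6658 in KI mice around a tight WT group of 5938 to 6092, with a log2 difference of -0.06 and an interval from -0.21 to 0.10. *Kcnd2* was at 2323 to 2906 against 2571 to 3327 (-0.19, interval -0.40 to 0.02), called only with all 64 libraries in 1 model (adjusted p = 0.0254), and *Kcna2* at 10141 to 13033 against 10053 to 10767 (0.13, interval -0.04 to 0.29). *Kcna4* was at 481 to 754 against 472 to 733. The coefficient of variation was higher in KI than in WT libraries for 6 of the 7 members, with medians of 10.3% and 2.86%, a difference in spread that was not tested. This was the highest count of any region and age. The lowest was 2 in cortex at PWK 7, and hippocampus at PWK 28 gave 3, with medians of 6.51% and 6.40%. No share over all genes is given here.

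In hippocampus at PWK 14, 4 of the 7 members were lower in KI mice and none was higher, where 7.95% of all genes were lower and 7.64% higher. All 4 had KI libraries below every WT library, as 23.8% of all genes had groups that did not overlap. The Kv3 subunit *Kcnc1* was at 4476, 4518, 4725 and 4921 in KI mice and at 5569, 5643, 5748 and 6032 in WT mice (log2 difference -0.30, SE 0.05, adjusted p = 0.00676 in limma). *Kcnc2* was at 1790, 2337, 2460 and 2740 against 3026, 3082, 3115 and 3136, the largest difference of the 7 at -0.42 (SE 0.11, adjusted p = 0.0334). Its KI libraries spread widely, with a coefficient of variation of 17.1% against 1.56% in WT.

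The A-type subunit *Kcnd2* was at 2840, 3035, 3130 and 3390 in KI hippocampus and at 3817, 3851, 3894 and 4581 in WT (log2 difference -0.38, SE 0.08, adjusted p = 0.0125 in limma). *Kcnq3* was at 5668, 5900, 6633 and 6944 against 7219, 8302, 8361 and 8857 (-0.38, SE 0.09, adjusted p = 0.0179). The 4 means lay between 18.9% and 24.5% below WT. The Kv1 subunits were not called. *Kcna2* was at 5895 to 7152 against 6090 to 7379, a difference of -0.01 with an interval from -0.20 to 0.18. *Kcna1* was at 2411, 2751, 3192 and 3851 against 2189, 2396, 2605 and 2742 (0.28, adjusted p = 0.189, but called with all 64 libraries in 1 model, adjusted p = 0.0135), and *Kcna4* at 797 to 1061 against 619 to 924 (0.29, adjusted p = 0.153).

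Replicate 1, the KI library with the high astrocyte markers, had the lowest *Kcna1*, *Kcna4*, *Kcnc2* and *Kcnd2* values of its group. Without it the 4 genes remained lower, at -0.29 for *Kcnc1* (adjusted p = 0.00774 in limma), -0.30 for *Kcnc2* (0.0111), -0.34 for *Kcnd2* (0.0153) and -0.35 for *Kcnq3* (0.0239), and *Kcna1* became the fifth member called, higher by 0.39 (0.0452). *Kcna4* was then at 0.36 (adjusted p = 0.0816) and *Kcna2* at 0.01 (0.933), neither called. Of all genes 8.43% were lower and 8.98% higher without that library. *Kcnc2* was not called without KI replicate 3 or any of the WT libraries in turn (adjusted p 0.0649 to 0.0892), and *Kcnq3* was not called without WT replicate 1 (0.0588) or 4 (0.0567).

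In hippocampus at PWK 28, *Kcnc2* and *Kcnq3* were again lower and *Kcna1* was higher in KI mice, where 6.91% of all genes were lower and 8.92% higher. *Kcnc2* was at 2565, 2638, 2642 and 2738 against 3001, 3001, 3229 and 3355 in WT mice (log2 difference -0.25, SE 0.05, adjusted p = 0.00691 in limma). *Kcnq3* was at 6218, 6230, 6413 and 6457 against 6982, 7494, 7844 and 8162 (-0.27, SE 0.05, adjusted p = 0.00507). Both groups of KI values were narrow and lay below all WT values. *Kcna1* was at 2368, 2492, 2620 and 2749 against 1949, 2169, 2195 and 2309 (0.25, SE 0.06, adjusted p = 0.0242), with no overlap.

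*Kcnc1* and *Kcnd2*, both called at PWK 14, just missed the threshold at PWK 28. *Kcnc1* was at 4062, 4595, 4831 and 4868 against 5005, 5019, 5069 and 5498, without overlap (-0.17, interval -0.30 to -0.03, adjusted p = 0.0876 in limma). With it, 4 of the 7 members did not overlap, as 21.5% of all genes did not. *Kcnd2* was at 3013 to 3651 against 3458 to 4013 (-0.22, interval -0.37 to -0.07, adjusted p = 0.0520). Both were called with total-sum scaling and with all 64 libraries in 1 model, and *Kcnd2* also without KI replicate 3 (adjusted p = 0.0153) or WT replicate 3 (0.0359). *Kcna4* was at 824 to 1144 against 643 to 932 (0.30, adjusted p = 0.135) and was called without WT replicate 4 (0.41, adjusted p = 0.0445), and *Kcna2* at 6122 to 7160 against 6050 to 6830 (0.04, interval -0.09 to 0.16). The *Kcna1* call was lost without KI replicate 1 or 3 or WT replicate 1, 3 or 4 and with the GC and length correction, where adjusted p lay between 0.0534 and 0.0608, and with all 64 libraries in 1 model (0.0520).

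**Figure D3:**
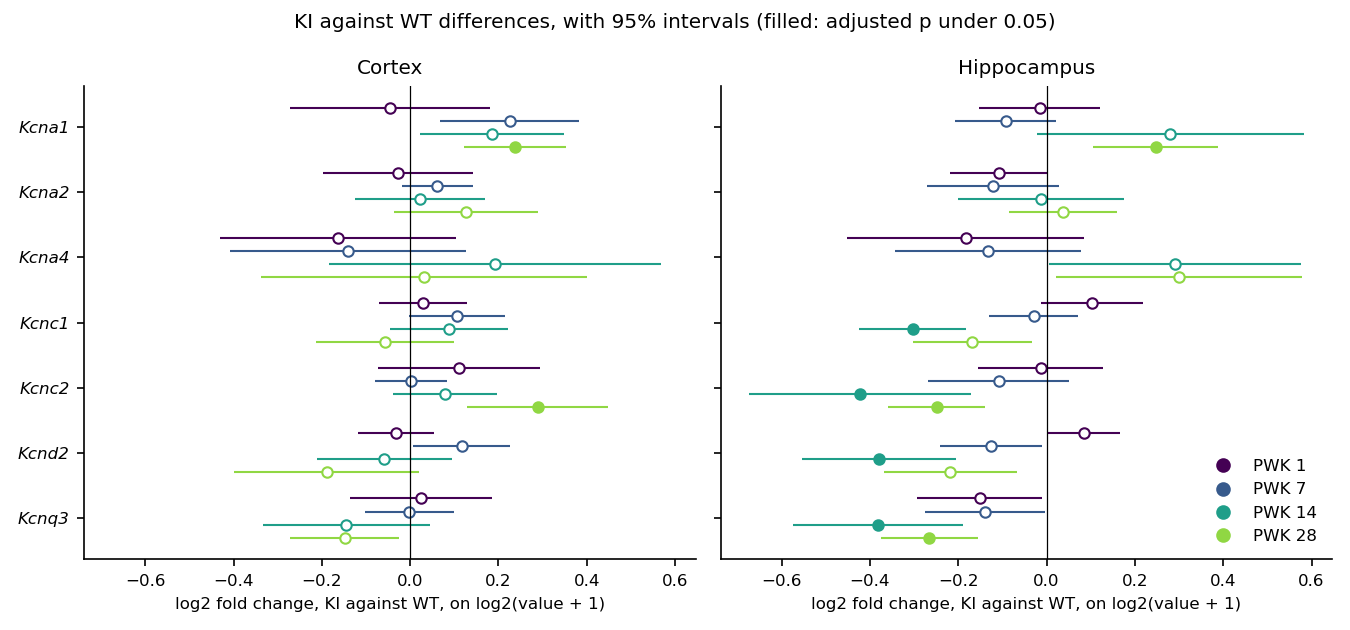
Log2 difference between KI and WT mice on the log2(value + 1) scale for each gene and age, cortex left and hippocampus right, with 95% intervals from limma and filled points for adjusted p under 0.05. *Kcnc2* lies right of 0 in cortex at PWK 28, at 0.29, and left of 0 in hippocampus at PWK 14 and 28, at -0.42 and -0.25.

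Whether the genotype difference depended on the region was tested as an interaction in the 16 libraries of an age. *Kcnc2* had the clearest one. At PWK 28 the hippocampal difference was lower than the cortical one by a log2 value of -0.54 (SE 0.09, adjusted p = 0.00222 in limma), since the gene was higher in KI cortex and lower in KI hippocampus, each beyond the threshold. At PWK 14 its interaction was -0.50 (SE 0.13, adjusted p = 0.0457), and that of *Kcnc1* was -0.39 (SE 0.08, adjusted p = 0.0157). Limma called 2.85% of all genes for this interaction at PWK 14 and 4.57% at PWK 28. The *Kcnc2* interaction at PWK 14 was not called without 13 of the 16 libraries in turn, with adjusted p between 0.0552 and 0.0902. It was also not called with equal replicate numbers as a block (adjusted p = 0.0545 in limma). Without the hippocampal KI library that stood apart, the interactions at PWK 14 were -0.38 for *Kcnc2* (adjusted p = 0.0152 in limma), -0.38 for *Kcnc1* (0.0183) and -0.28 for *Kcnd2* (0.167). That of *Kcnd2* at PWK 14 was -0.32 (interval -0.55 to -0.10, adjusted p = 0.116) and was called with all 64 libraries in 1 model (adjusted p = 0.0204). For *Kcna1*, higher in both regions at PWK 28, it was 0.01 with an interval from -0.16 to 0.18.

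The interaction of genotype with age, PWK 28 against PWK 14, was called for no member and for 0% of all genes in limma in both regions. In cortex 2770 genes (15.1%) and in hippocampus 2274 genes (12.4%) had an unadjusted p under 0.05, and all 64 libraries in 1 model called 913 and 469. Of the members, *Kcnc2* in cortex alone had such a p, with a log2 interaction of 0.21 (interval 0.02 to 0.40). The genes called at only 1 of the 2 ages are therefore not shown to differ between the ages.

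Levels of the cells in which these genes are known to be strong were set beside these results. Of 6 markers of parvalbumin and fast-spiking interneurons, the cells best known for Kv3 channels, 0 were called in hippocampus at PWK 14 and 28. Their summed level there at PWK 28 was 4125 to 4473 in KI and 4283 to 4486 in WT libraries, where *Kcnc2* did not overlap, and none of the 6 was listed at 0. At PWK 14 it was 2767 to 4309 against 3877 to 4724, with 2767 in the library that stood apart and 3580 or more in the other KI libraries. In cortex at PWK 28, where *Kcnc2* and *Kcna1* were higher, 3 of these markers were higher and 1 lower, as were 12.2% and 10% of all genes. The sum of the 6 was 6980 to 7722 in KI and 6318 to 7004 in WT libraries. Their part in the *Kcnc2* and *Kcna1* results was not tested.

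Other cell types moved with genotype as well. For the counts here and in the next paragraph, the shares of all genes are those given above with the members. In hippocampus at PWK 14, where 4 members were lower, 1 of 5 excitatory neuron markers was lower and 0 were higher, with a median log2 difference of -0.45. Their sum was 124905 to 204833 in KI and 181556 to 236262 in WT libraries, and without replicate 1, which had the lowest, the KI sums began at 159748, with 2 markers lower, 1 higher and a median of -0.31. Of 6 markers of hippocampal fields, 2 were lower and 0 higher, *Fibcd1* by -1.66 and *Spink8* by -0.42, with sums of 16171 to 18478 against 18225 to 21016. The counts were the same without replicate 1. The 4 markers not called were then at 0.22 (*Wfs1* and *Prox1*), 0.05 (*C1ql2*) and -0.21 (*Calb1*). The median over the 6 field markers was -0.26 with all libraries and -0.08 without replicate 1. Of 7 pan-neuronal markers 1 was lower and 0 higher, with and without replicate 1, and the sums were 171605 to 197896 against 192161 to 203567. Of 7 other GABAergic markers 2 were higher and 1 lower (3 and 1 without it), and they summed to 23733 to 33818 against 19674 to 22292.

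Of 6 astrocyte markers, 3 were higher and 0 lower in hippocampus at PWK 14, also without replicate 1, and of 6 microglia and 6 oligodendrocyte markers 0 were called. At PWK 28 the astrocyte markers again gave 3 higher and 0 lower, and summed to 74481 to 86362 in KI and 45145 to 46791 in WT libraries. The microglia markers gave 3 higher, the oligodendrocyte markers 1 higher, the pan-neuronal markers 1 in each direction, the other GABAergic markers 4 higher and 1 lower, the excitatory markers 1 higher and the field markers 2 higher and 1 lower. In cortex at PWK 28 the astrocyte markers gave 1 higher and 2 lower, the GABAergic ones 4 higher and 2 lower, the excitatory and the pan-neuronal ones 1 in each direction, the microglia markers 1 higher and the oligodendrocyte markers 0. No gene of these marker lists was listed at 0 in a library of PWK 14 or 28, and the part of these cells in the members' differences was not tested.

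The remaining voltage-gated channels gave a wider view. Of 30 other alpha subunits in the table, 2 were higher and 5 lower in KI cortex at PWK 14, and 9 were higher and 7 lower at PWK 28. Of all genes, 2.48% were higher and 2.7% lower there at PWK 14, and 12.2% and 10% at PWK 28. For hippocampus, 5 subunits were higher and 5 lower at PWK 14 (7 and 6 without replicate 1) and 6 and 5 at PWK 28. The shares of all genes were 7.64% and 7.95% at PWK 14 (8.98% and 8.43% without replicate 1) and 8.92% and 6.91% at PWK 28. With all libraries, the median log2 difference of the 30 subunits lay between -0.11 in cortex at PWK 14 and 0.15 in cortex at PWK 28. That of all genes tested lay between -0.00 and 0.01, which the authors' scaling of the libraries holds near 0. Over the members the median was -0.30 in hippocampus at PWK 14 (-0.29 without replicate 1) and -0.17 at PWK 28.

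Several of these differed more than any member did. *Kcng1*, a silent subunit that modifies Kv2 channels, fell in KI cortex to 324 to 473 from 884 to 1137 at PWK 14 (log2 difference -1.39, SE 0.12) and to 221 to 372 from 564 to 895 at PWK 28 (-1.42). *Kcng4*, another silent subunit, rose in cortex, to 432 to 1098 from 184 to 244 at PWK 28 (1.56, SE 0.24), and in hippocampus to 219 to 258 from 143 to 180 (0.52). *Kcnq1*, a Kv7 subunit best known from heart and inner ear, was barely expressed in WT hippocampus at PWK 14, at 2.06 to 10.2, and at 39.9 to 81.3 in KI mice (3.22, SE 0.42, and 3.07 without replicate 1). Each of these had an adjusted p of at most 0.00921 in limma.

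*Kcnh4*, an ether-a-go-go-like subunit, was lower in KI cortex at both ages, by -0.88 and -1.24 (log2 differences). In hippocampus at PWK 14 *Kcng2* was lower by -0.99 and *Kcnh7* by -0.75, while *Kcns1* was higher by 0.55. Without replicate 1 these were -0.84, -0.66 and 0.45, each still called. At PWK 28 *Kcng3* was lower by -1.08, *Kcnf1* by -0.63, and *Kcnd1*, the close relative of *Kcnd2*, was higher by 0.51. *Kcnc4* of the Kv3 family, a near relative of *Kcnc2* that was added after its values were seen, was higher in cortex at PWK 28 by 0.25 and in hippocampus at PWK 28 was at 0.23 without passing the test (adjusted p = 0.123 in limma).

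Among the auxiliary subunits, 2 genes differed in the same direction in all 4 late comparisons. *Kcnip2* and *Kcnip3* encode calcium-binding proteins that attach to Kv4 channels such as *Kcnd2* and set their surface level and inactivation. *Kcnip2* was lower in KI mice, with log2 differences in cortex of -0.76 at PWK 14 and -1.56 at PWK 28, and in hippocampus of -1.09 and -0.74. *Kcnip3* was higher, by 0.68, 0.93, 1.29 and 1.06 in the same order. Without replicate 1 the hippocampal values at PWK 14 were -0.86 for *Kcnip2* and 1.34 for *Kcnip3*, both called. In hippocampus at PWK 28 *Kcnip2* was at 2440 to 3362 against 4615 to 4992 and *Kcnip3* at 3975 to 5037 against 2082 to 2279. *Kcnip1* was higher in cortex at PWK 14, at 706 to 1027 against 538 to 580. Of the 13 auxiliary subunits, 3 were higher and 1 lower in cortex at PWK 14, and 4 were higher and 1 lower at PWK 28. For hippocampus the numbers were 1 and 3 at PWK 14, with and without replicate 1, and 2 and 1 at PWK 28. Of 7 anchoring and partner proteins of axonal Kv1 channels, 0 were called in cortex at PWK 14, 1 in each direction at PWK 28, 1 lower in hippocampus at PWK 14, and 1 in each direction at PWK 28. For both lists the shares of all genes are those given with the other alpha subunits.

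**Figure D4:**
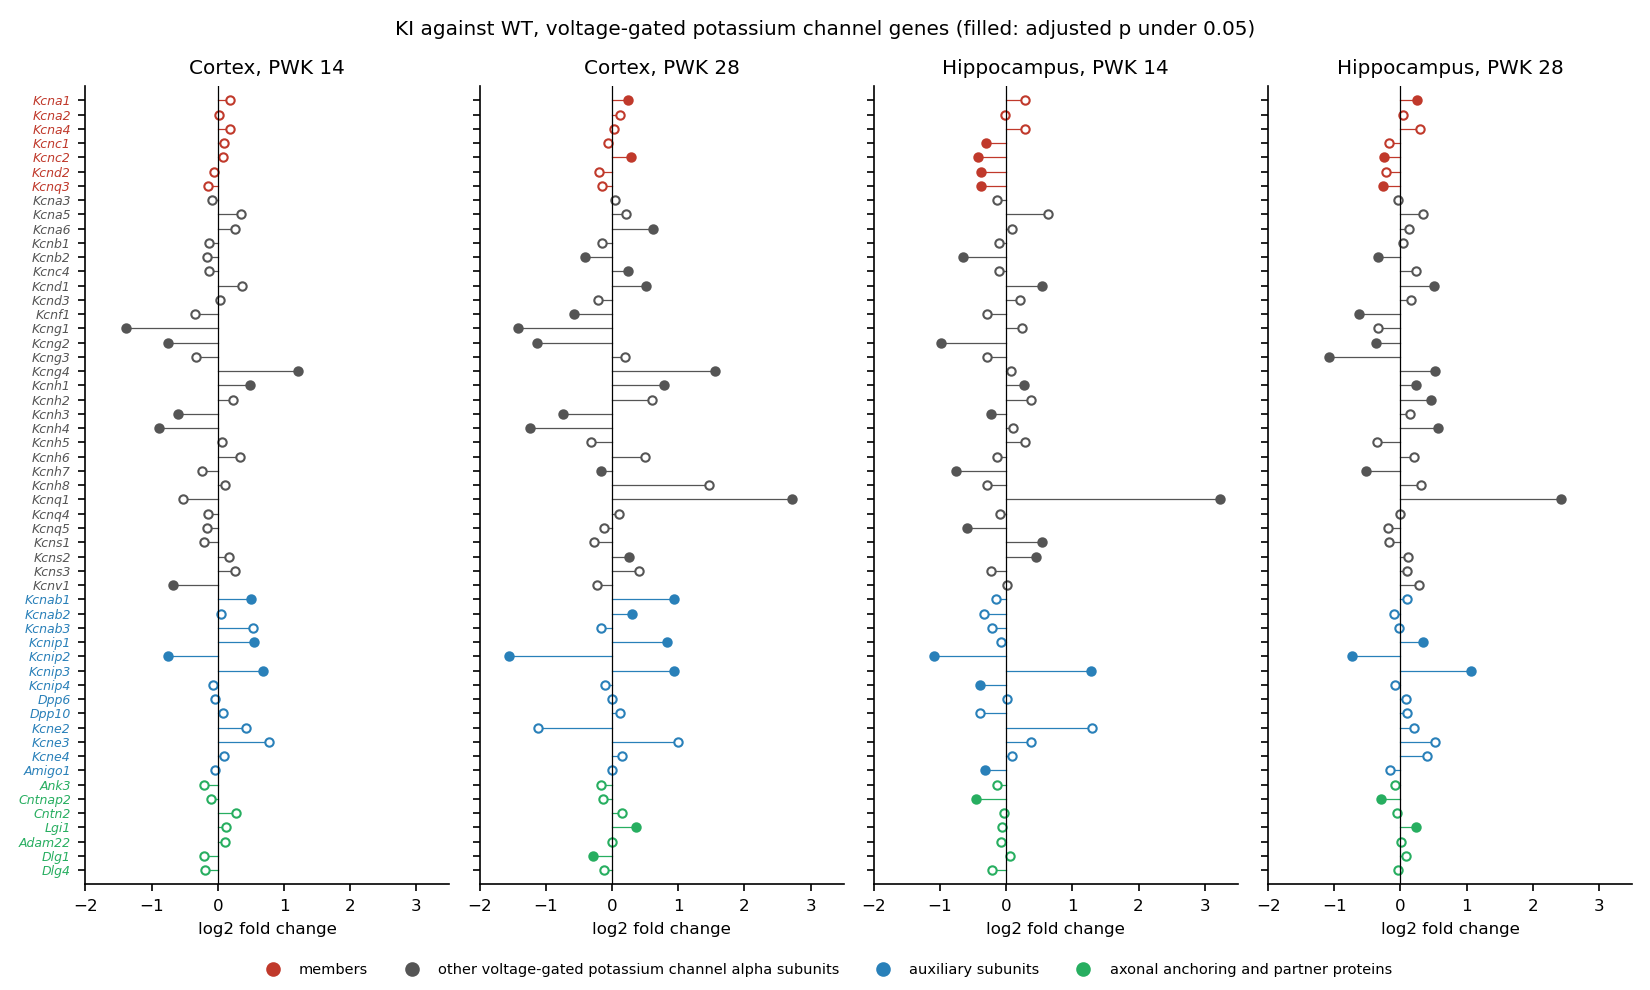
Log2 difference between KI and WT mice for the 7 members (red) and most of the other alpha subunits (grey), auxiliary subunits (blue) and anchoring proteins (green), 1 panel per region and age at PWK 14 and 28, with filled points for adjusted p under 0.05 in limma. *Kcnip2* lies left and *Kcnip3* right of 0 in all 4 panels, and the members lie between -0.42 and 0.30.

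Across the 16 group means, which share their libraries' regions and ages, the 4 genes that rose after birth in both regions, *Kcna1*, *Kcna2*, *Kcnc1* and *Kcnc2*, ran together, with Pearson correlations on the log2(value + 1) scale of 0.968 between *Kcnc1* and *Kcnc2*, 0.949 between *Kcna2* and *Kcnc2* and 0.828 between *Kcna1* and *Kcna2*. *Kcna4*, which rose in hippocampus, had lower correlations with them, of 0.494 with *Kcna1*, 0.236 with *Kcnc1*, 0.189 with *Kcnc2* and 0.0096 with *Kcna2*. *Kcnq3* ran against *Kcna1* at -0.835. Over the 12 groups of PWK 7 and later, *Kcna2* and *Kcna4*, higher in cortex and in hippocampus respectively, correlated at -0.903, *Kcnc1* and *Kcnc2* at 0.749, and *Kcna1* with *Kcna2* at 0.133. These are descriptions of group means and carry no test.

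Among the 12819 genes with a mean of at least 100, those most like each member over the 16 groups were *Hapln4* (0.990) and *Zfp691* for *Kcna1*, *Gpr158* (0.991) and *Nrsn1* for *Kcna2*, *Gabrb1* (0.972) and *Mthfd1* for *Kcna4*, *Scn2b* (0.993) and *Amigo1* for *Kcnc1*, *N4bp2l1* (0.994) and *Rapgef4* for *Kcnc2*, *Pygo1* (0.976) and *Cpne4* for *Kcnd2*, and *Cpne8* (0.972) and *Cemip* for *Kcnq3*. Over the 12 later groups they were *Mlx* (0.890) and *Gars* for *Kcna1*, *Lnx1* (0.992) and *Pdzrn3* for *Kcna2*, *Rev3l* (0.983) and *Gabrb1* for *Kcna4*, *Trpm2* (0.976) and *Sncb* for *Kcnc1*, *N4bp2l1* (0.978) and *Tmed8* for *Kcnc2*, *Lpl* (0.980) and *Tor1b* for *Kcnd2*, and *Cpne8* (0.952) and *Ccdc177* for *Kcnq3*. *N4bp2l1* was thus first for *Kcnc2* and *Cpne8* first for *Kcnq3* with and without PWK 1. Over the 12 later groups the group means of *Kcna1* ranged from 2156 to 3051.

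The median coefficient of variation within a group was 4.28% for *Kcnc1*, 4.98% for *Kcnc2*, 6.38% for *Kcnd2*, 6.70% for *Kcna1*, 7.01% for *Kcna2*, 7.29% for *Kcnq3* and 16.1% for *Kcna4*, against a median of 6.95% over genes with a mean of at least 100. For *Kcna4*, the least abundant member per kb, the interval of the genotype difference in cortex at PWK 28 ran from -0.34 to 0.40.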

How the data were processed

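Frontal cortex and hippocampus of Cyfip2+/R87C KI and WT mice at PWK 1, 7, 14 and 28 were profiled by RNA-seq, with 4 libraries in each of 16 groups, grouped as the labels give them. Salmon on GRCm38 and DESeq2 were the tools with which the authors made gene-level values; the submitters' processing notes name Salmon 0.11.2, DESeq2 1.19.11 and R 3.6.0. The deposited values are this normalised signal, not counts, and whole reads could not be recovered, so precision was judged from the spread between the 4 mice. Of 18432 gene IDs, 18420 matched GENCODE.

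Tests used limma-trend (limma 3.58.1, R 4.3.3) on log2(value + 1) over all genes with a mean of at least 1 in the libraries compared, without covariates except age in the adult regional comparison, with a Benjamini-Hochberg adjusted p under 0.05 as the threshold. Fold changes are on that scale, which understates low genes. The fit was tested on simulated data. The members and lists were chosen with earlier results of these data known. Besides the members, the rule named up to 3 called channel genes per direction and late comparison with the largest change and no overlap, and the 2 genes most like each member. Alternatives were a pseudocount of 10, no filter, a mean of at least 10, total-sum scaling, all 64 libraries in 1 fit, a GC content and length correction, the replicate block and leaving out each library. The values of 2 of the other alpha subunits enter the counts and are left out of the text and figures.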

Additional observations from a re-analysis of the deposited data

Results flagged for a closer look

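The genotype difference differed between the regions, by a test of that difference, for *Kcnc1* at PWK 14 (-0.39, hippocampal minus cortical log2 difference) and for *Kcnc2* at PWK 14 (-0.50) and PWK 28 (-0.54). The *Kcnc2* call at PWK 14 (adjusted p = 0.0457 in limma) was weak. It was lost without most of the libraries in turn (adjusted p up to 0.0902) and with the replicate block (0.0545).

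In 9 of the 112 groups of 4 libraries checked over the 7 members, 1 library lay far from the other 3, where chance gives about 1 in 20. These were *Kcna1* in KI hippocampus at PWK 1 (replicate 2 at 1022, the others at 1189 to 1221), *Kcna4* in KI cortex at PWK 1 (replicate 4 at 613) and WT cortex at PWK 14 (replicate 4 at 394), and *Kcnd2* in WT hippocampus at PWK 14 (replicate 4 at 4581). *Kcnc1* stood out in KI cortex at PWK 14 (replicate 4 at 7892) and WT hippocampus at PWK 28 (replicate 2 at 5498), *Kcnc2* in WT hippocampus at PWK 7 (replicate 3 at 3087), and *Kcnq3* in WT cortex at PWK 1 (replicate 1 at 9841) and KI cortex at PWK 14 (replicate 1 at 5550).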

How the results depend on the processing

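The number of members called moved by more than 1.5 times in these settings that kept all libraries: 5 instead of 3 for KI against WT in hippocampus at PWK 28 with total-sum scaling; 0 instead of 1 between PWK 7 and 28 in WT cortex with all 64 libraries in 1 fit, with the GC and length correction and with the replicate block; 1 instead of 3 in WT hippocampus with total-sum scaling and with all 64 libraries; and 1 instead of 2 for genotype by region at PWK 14 with the replicate block. The order of levels per kb was the same in 3 of 16 groups with the longest transcript. Without 1 library in turn, the counts ranged from 1 to 2 for KI against WT in cortex at PWK 28, 2 to 5 and 2 to 3 in hippocampus at PWK 14 and 28, 0 to 1 and 1 to 3 between PWK 7 and 28 in WT cortex and hippocampus, 5 to 6 between PWK 1 and 7 in hippocampus, and 1 to 2 for genotype by region at PWK 14. The other counts did not change without 1 library. The cause of these changes was not tested.

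The 61 member differences with a call in some setting or an unadjusted p under 0.05 kept their sign in every setting. Of 65 others, 13 changed sign in a setting with all libraries and 26 without 1 library, none larger than 0.16 on the log2 scale. No setting moved the median of all genes by over 0.1. With total-sum scaling the share of higher calls among all genes called for KI against WT went from 47.8% to 60.4% (cortex, PWK 14), 54.8% to 43.7% (cortex, PWK 28) and 56.3% to 40.6% (hippocampus, PWK 28). In WT mice it went from 48.8% to 59.8% and 43.1% to 56.9% between PWK 7 and 28 in cortex and hippocampus, and from 46.3% to 66.6% between the regions at PWK 1. The GC and length correction took it from 49.0% to 35.6% in hippocampus at PWK 14. With all 64 libraries in 1 fit, the KI against WT calls at PWK 14 went from 951 to 1946 genes in cortex and from 2870 to 6050 in hippocampus, and genotype by region from 525 to 2000 at PWK 14 and 841 to 1320 at PWK 28. The replicate block gave 1788 genes in hippocampus at PWK 14 and lost the calls of *Kcnc2* there (adjusted p = 0.0573 in limma), *Kcna1* in hippocampus at PWK 28 (0.0563) and *Kcnc2* for genotype by region at PWK 14 (0.0545). The labels do not say that a number marks 1 mouse, and cortical and hippocampal libraries of equal number correlated over 0.1 in 17 of 32 pairs (mean 0.140, against -0.046 for other numbers). In KI mice these were 3 of 4 pairs at PWK 14 and 4 of 4 at PWK 28 (0.239 to 0.443). In WT mice they were 1 of 4 at PWK 14 and 0 of 4 at PWK 28. The values carry no counting depth, and with 4 mice per group the SE of the members' KI against WT differences was 0.04 to 0.17 on the log2 scale.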
